A study of Mus musculus with 12 samples.

Results

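The effect of an Ino80 hairpin on gene expression was read at its earliest time point, 2 days (48 hours) after infection, in J1 cells, a mouse embryonic stem cell (ESC) line. The comparison sets 2 arrays of cells given a lentivirus with a short hairpin RNA against Ino80 (shIno80) against 2 arrays of cells given a non-targeting hairpin (shNT), 4 of the 12 arrays of the series. Its other 8 arrays hold the same hairpins at days 4 and 6. All J1 cells were kept in ESGRO medium and moved to M15 medium for infection, so both groups share the virus, the medium and the time in culture. Members were the value-table columns named for shIno80 and shNT at day 2, with all genes measured. The labels call the arrays of a group replicates and do not say that they came from separate cultures, so p-values reflect only how far these arrays lay apart, which may be technical. Whether 1 or several hairpins were used against Ino80, and their sequences, are not given in the sources used here.

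INO80 is a large chromatin remodelling complex that uses ATP to slide nucleosomes and to exchange histone variants near transcription start sites. Ino80 is its ATPase, and the zinc finger protein YY1, which binds promoters by sequence, is a known partner of the complex. In ESCs, INO80 is known for its presence at the promoters of pluripotency genes, which keep the cells undifferentiated.

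Signal is given below as log2 of the processed intensity minus the 75th percentile of its array, so that 0 is the level that 25% of probes exceed. On the 4 arrays, 63.62% to 68.6% of probes passed the scanner software's test of being well above background, at most 1 probe was saturated, and the 75th percentile lay between 1155 and 1407 intensity units. The number of arrays, 2 per group, limits the precision. Across probes, the shNT pair correlated at r = 0.9905 and the shIno80 pair at 0.9917, and the 4 pairs across groups at 0.9826 to 0.9870. The deposit's scanner files place the arrays at slide positions 2 and 3 in the opposite group from its value table, whose columns are followed here, and the group cannot be told apart from slide position. With the arrays as the files are attached, the Ino80 signal was high on 1 array of each group and low on the other, and limma called 0 genes, with 593 at an unadjusted p under 0.05. Markers of ESCs were present: 8 of 8 were well above background on all 4 arrays, with mean log2 signals of 5.23 and 5.11 in shNT and 4.78 and 4.64 in shIno80.

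Ino80 itself was measured by 3 probes. Since the grouping of arrays was chosen with the Ino80 probes known, its level describes the groups and is no independent check of the labels. The reported probe stood at 2.75 and 2.68 in shNT and at 0.59 and 0.86 in shIno80. It was 3.97-fold lower (log2 fold change -1.99 ± 0.16 SE, limma adjusted p = 0.000725). Both other kept probes lie farther inside the gene, 9582 and 33520 bases from the reported one by the file headers' mm7 positions, and are printed here because they read separate stretches of the transcript. They sit on the minus strand at chr2:119123739-119123798 and chr2:119147677-119147736 and read as follows, with no letters marked.
A_52_P354363: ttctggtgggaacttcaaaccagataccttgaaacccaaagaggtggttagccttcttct
A_52_P533724: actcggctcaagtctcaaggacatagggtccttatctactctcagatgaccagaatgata
The first of them stood at 1.05 and 1.16 in shNT and at -1.32 and -0.88 in shIno80, a log2 difference of -2.21 ± 0.17 SE. The second stood at -0.66 and -1.06 against -3.28 and -3.16, a difference of -2.36 ± 0.15 SE. All 3 probes were lower on both shIno80 arrays than on either shNT array, and the day 4 and day 6 differences of the reported probe were -2.29 and -2.06.

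**Figure D1:**
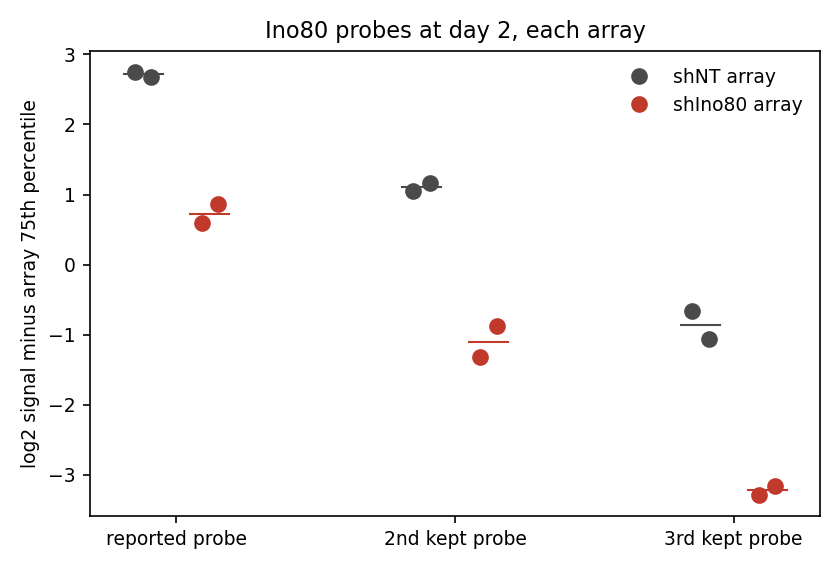
Log2 signal minus the array's 75th percentile (vertical axis) of the 3 kept Ino80 probes on each of the 4 day 2 arrays, shNT in grey and shIno80 in red, with short lines at the means of 2 arrays. For each probe, both shIno80 arrays lie below both shNT arrays, by 1.99, 2.21 and 2.36 on the log2 scale between the means.

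None of the other INO80 complex subunits passed limma's test at day 2. Of 15 tested subunits, Ino80 alone was called, and the median log2 fold change of the 15 was -0.09, against 0.01 over all genes tested. The remaining 14 lay between -0.36 and 0.39. Among 22 other remodelling ATPases, 2 rose and 1 fell, a called share of 13.6% that lies near the 12.6% of all tested genes called at day 2. Smarca2, an ATPase of the SWI/SNF complex, rose from -4.65 and -5.03 to -3.93 and -4.06 (0.85 ± 0.14 SE, adjusted p = 0.0086), and Chd7 rose from 1.83 and 2.39 to 2.86 and 3.20 (0.92 ± 0.22, adjusted p = 0.0325), a call lost with median scaling.

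Across the array, limma called 1208 of 19184 genes higher in shIno80 (6.30%) and 1215 lower (6.33%), 12.6% in all, at a Benjamini-Hochberg adjusted p under 0.05. Of these, 282 were higher and 354 lower by at least 2-fold, and the median size of a called change was 0.72 for rises and 0.76 for falls on the log2 scale. In none of the called genes did the 2 groups overlap. With 2 arrays per group this nearly follows from passing the test and adds no support of its own. These calls borrow their spread from all 12 arrays. Fitted on the 4 day 2 arrays alone, 6 genes passed, all lower, with 3260 at an unadjusted p under 0.05. Leaving out 1 of the shIno80 arrays lowered the count from 2423 to 1169 (without replicate 1) or 1098 (without replicate 2).

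**Figure D2:**
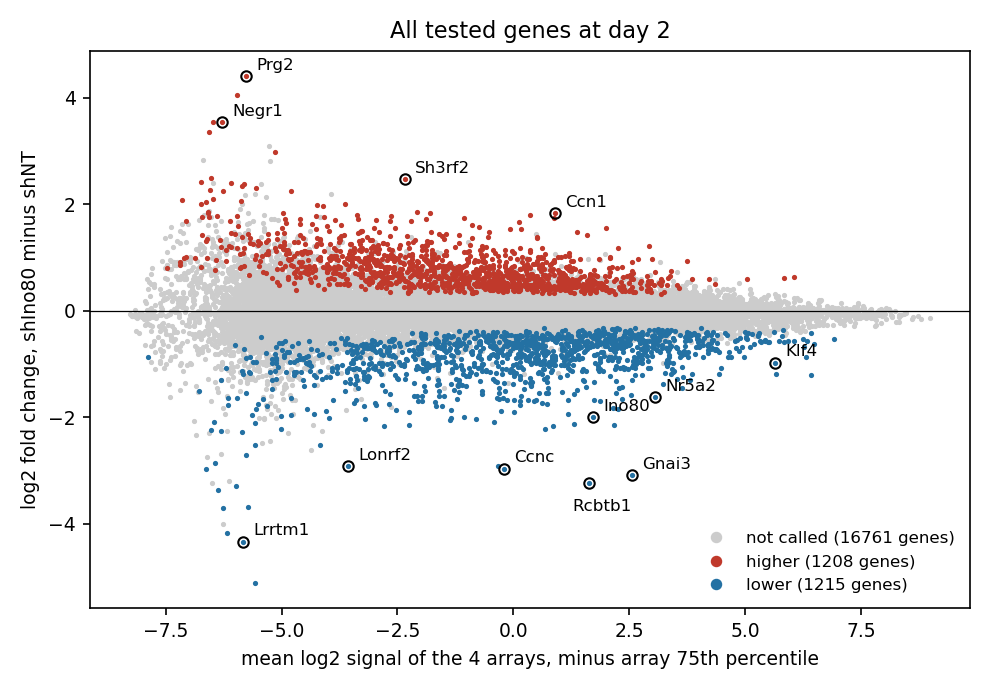
Log2 fold change of shIno80 minus shNT (vertical axis) against the mean log2 signal of the 4 day 2 arrays (horizontal axis), 1 point per tested gene. Red points are the 1208 genes called higher, blue points the 1215 called lower and grey points those not called. Rcbtb1 and Gnai3, at -3.24 and -3.08, lie farthest below 0 among the bright genes.

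The 12 largest falls were taken among genes that had passed limma's test, with groups that did not overlap and clear detection on all 4 arrays. Their limma adjusted p lay between 7.86e-05 and 0.0076. Rcbtb1, which encodes a protein with RCC1 repeats and a BTB domain, stood at 3.02 and 3.48 in shNT and at -0.23 and 0.24 in shIno80, 9.47-fold lower (-3.24 ± 0.21 SE). Gnai3, an inhibitory G protein alpha subunit gene, went from 3.89 and 4.31 to 0.90 and 1.14, 8.43-fold lower (-3.08 ± 0.17). Its relatives Gnai1 (0.15 ± 0.11) and Gnai2 (-0.11 ± 0.24) did not pass the test. Ccnc, which encodes cyclin C, the partner of the Mediator kinase, went from 1.21 and 1.33 to -1.82 and -1.55, 7.77-fold lower (-2.96 ± 0.15). Lonrf2, a RING finger gene, was at -2.18 and -2.05 against -5.04 and -5.02 (-2.92 ± 0.17). Bbx, an HMG-box gene, was at 0.93 and 1.31 against -1.91 and -1.68 (-2.91 ± 0.16). In these 5 genes the gap between groups was several times the gap between arrays of a group.

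Not every probe of these genes moved by the same amount. A second probe of Ccnc differed by -0.16 and did not pass (adjusted p = 0.565). For Rcbtb1 another probe was lower by a log2 change of -1.02, and for Bbx 2 others changed by -1.98 and -2.18. Gnai3 and Lonrf2 had 1 kept probe each.

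The next falls were smaller and included regulators of transcription, the cell cycle and RNA sensing. Fyttd1, an mRNA export adaptor gene, fell from 1.77 and 1.84 to -0.48 and -0.35 (-2.22 ± 0.10 SE) and had the lowest adjusted p of the 12 (7.86e-05). Evx1, a homeobox gene of the primitive streak, fell from -1.75 and -1.65 to -4.39 and -3.34 (-2.17 ± 0.35). Its shIno80 arrays lay farther apart than those of the other 11 genes. Tmem64 (-2.16 ± 0.19), the helix-loop-helix gene Bhlhe23 (-2.15 ± 0.17) and Sephs2, a selenophosphate synthetase gene (-2.14 ± 0.17), fell about as far. Ccnd2, which encodes cyclin D2, fell from 2.19 and 2.56 to 0.09 and 0.40 (-2.13 ± 0.17), and its 2 other probes fell by 2.07 and 2.03. Ddx58, which encodes the RNA sensor RIG-I, fell from 0.65 and 0.58 to -1.37 and -1.56 (-2.08 ± 0.15), and its 2 other probes fell by 2.90 and 1.93.

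The 12 largest rises, chosen in the same way, were less steep than the 12 largest falls. They had adjusted p between 0.000683 and 0.0307. Sh3rf2, a RING finger and SH3 domain gene, stood at -3.44 and -3.71 in shNT and at -1.01 and -1.21 in shIno80, 5.53-fold higher (2.47 ± 0.22 SE). Ccn1, a secreted matrix protein known as a target of the YAP coactivator, went from -0.02 and -0.03 to 1.82 and 1.79, 3.56-fold higher (1.83 ± 0.15). Dll1, a Notch ligand gene, went from -2.22 and -1.65 to -0.26 and -0.10 (1.75 ± 0.19). The tight junction gene Marveld3 (1.78 ± 0.21), the scavenger receptor gene Colec12 (1.80 ± 0.22) and Cd200, an immunoglobulin family membrane protein gene (1.78 ± 0.23), rose by similar amounts, with the shNT arrays of Colec12 at -3.98 and -4.59. In the remaining 6 the arrays of a group were spread over 0.53 to 1.65 on the log2 scale. Insm1, a zinc finger gene of neuroendocrine cells, was at -5.46 and -3.81 against -2.93 and -2.34 (2.00 ± 0.45). Chst1, a sulfotransferase gene, was at -3.66 and -2.37 against -1.52 and -0.79 (1.86 ± 0.44). Myl9, a myosin light chain gene, was at -0.59 and 0.61 against 1.32 and 2.20 (1.75 ± 0.40). Metrnl (1.83 ± 0.37), Fgfbp1, which encodes a secreted FGF-binding protein (1.80 ± 0.35), and the kinase gene Brsk2 (1.77 ± 0.36) had standard errors of the same order. Second probes of Metrnl (0.45) and Brsk2 (0.40) did not pass. When 1 array was left out, the calls of Insm1, Chst1, Metrnl, Fgfbp1, Brsk2 and Myl9 were lost at least once, while those of Sh3rf2, Ccn1, Dll1, Marveld3, Colec12, Cd200 and all 12 falls were kept each time.

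**Figure D3:**
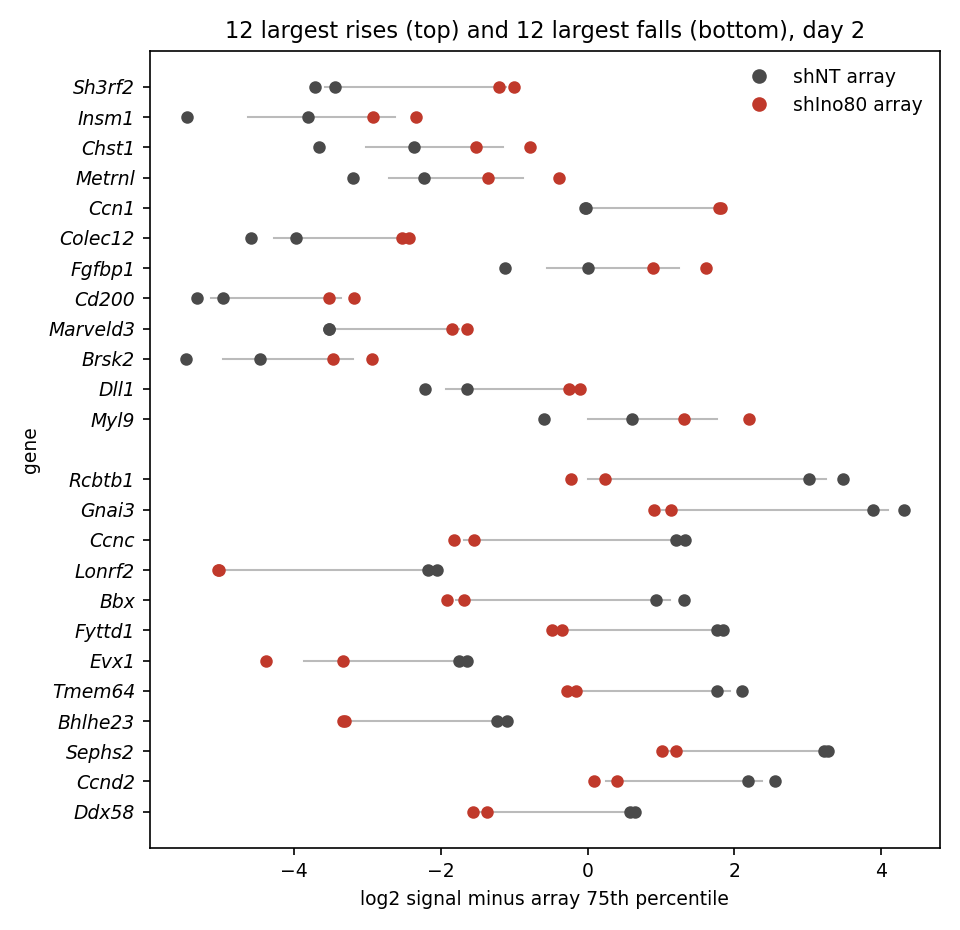
Log2 signal minus the array's 75th percentile (horizontal axis) on each day 2 array, shNT in grey and shIno80 in red. Shown are the 12 largest rises (top) and 12 largest falls (bottom) among called genes without group overlap, detected on each array. A line joins the group means. The falls are separated by wider gaps than the rises, from 2.08 to 3.24 against 1.75 to 2.47.

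Some genes were detected in 1 group only, and their changes are bounds. There were 43 called genes well above background on both shIno80 arrays and on no shNT array, and 32 the other way round. Their folds are written "at least". Each divides the mean of the detected group by a floor for the other, which on each array is the dimmest detected signal or the gene's own signal, whichever was higher. Prg2, which encodes eosinophil major basic protein, was at least 5.09-fold higher, with shIno80 arrays at -4.53 and -2.61 (adjusted p = 0.00234). Reg3d, a secreted lectin gene, was at least 3.98-fold higher, and Negr1, an adhesion molecule gene, at least 2.66-fold. Ms4a4d (at least 2.48-fold), the hyaluronan receptor gene Cd44 (at least 2.45-fold) and Klf14 (at least 2.38-fold) followed. In the other direction, Lrrtm1, a gene for a synaptic leucine-rich repeat protein, was at -3.58 and -3.73 in shNT and at least 5.11-fold lower in shIno80 (adjusted p = 8.71e-06). Rassf9 (at least 4.38-fold), ccdc198 (at least 3.22-fold), Prss28 (at least 3.03-fold), Btnl1 (at least 2.83-fold) and Mall (at least 2.69-fold) were lower as well.

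The 6 genes that passed in the 4 arrays alone were mostly of this kind. AK035855, a transcript with an accession only, was at -3.02 on both shNT arrays and at -8.12 on both shIno80 arrays, at least 7.92-fold lower. AK030647 (at least 3.02-fold), Poteg (at least 2.16-fold) and 2510042H12Rik (at least 1.82-fold) were also at the scanner software's surrogate value for low spots on both shIno80 arrays. A surrogate value is not a measured spread, so the p-values of these 4 rest on the shNT arrays and the other groups. Lrrtm1 was at a surrogate value on 1 shIno80 array, and Lonrf2 on none. Poteg did not pass in the fit over 12 arrays (adjusted p = 0.112).

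Of 26 pluripotency factors tested, 6 fell and 0 rose at day 2. Their called share was 23.1%, against 12.6% of all genes called either way and 6.33% called lower. In all, 24 had a fold change below 0, and the median was -0.35. Calls among bright genes leaned lower too. In the brightest of 4 equal groups of tested genes by mean signal, 7.67% were called lower and 2.65% higher. The list was not compared with genes of like signal. Nr5a2, a nuclear receptor gene of naive ESCs, fell from 3.62 and 4.14 to 2.16 and 2.35 (-1.62 ± 0.18 SE, adjusted p = 0.00173). Tbx3 fell from 4.46 and 4.43 to 3.24 and 3.28 (-1.18 ± 0.15, adjusted p = 0.00296). Klf4, a zinc finger factor of the naive state, fell from 6.12 and 6.16 to 5.24 and 5.09 (-0.97 ± 0.16, adjusted p = 0.00861). Tfcp2l1 (-0.78 ± 0.19), Tdgf1 (-0.66 ± 0.15) and Zfp42 (-0.53 ± 0.14, adjusted p = 0.047) fell less far. In the core factors the groups did not overlap, which is weak evidence with 2 arrays per group, and none passed. Nanog was at 3.95 and 3.48 against 3.07 and 2.42 (-0.97 ± 0.30, adjusted p = 0.0745), as large a difference as that of Klf4 with a wider spread. Sox2 was at 3.93 and 4.17 against 3.66 and 3.74 (-0.35 ± 0.11, adjusted p = 0.0756), Pou5f1 at 5.22 and 5.0 against 4.86 and 4.71 (-0.33 ± 0.17, adjusted p = 0.278), and Esrrb differed by -0.31 ± 0.23 (adjusted p = 0.459). At days 4 and 6 the list's median was -1.27 and -1.76. The call of Zfp42 was lost with median scaling and that of Tdgf1 with quantile normalization.

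Signalling pathways of ESCs changed in single members. Called shares were 27.8% in the LIF list, 14.3% in Nodal and activin and 7.41% in FGF, against 12.6% of all genes. The LIF pathway, which holds mouse ESCs in self-renewal through STAT3, had 2 members higher and 3 lower of 18. Socs3, a feedback inhibitor induced by STAT3, fell from 5.28 and 5.25 to 4.53 and 4.66 (-0.67 ± 0.10 SE, adjusted p = 0.0059). The reported probe of the receptor gene Lifr rose by 0.52 ± 0.09, but another of its probes fell by 1.30 (adjusted p = 0.0106), so the gene has no single direction on this array. The rise did not pass with median scaling. In the FGF pathway, 2 of 27 fell: Fgf15 from -0.33 and -0.74 to -1.81 and -2.22 (-1.48 ± 0.21) and Fgf5, a marker of the primed epiblast, from -3.11 and -2.44 to -4.11 and -3.90 (-1.23 ± 0.28, adjusted p = 0.0268). In the Nodal and activin pathway, 3 of 21 fell. Inhbb, an activin subunit gene, fell from 2.28 and 2.89 to 0.71 and 1.11 (-1.68 ± 0.23, adjusted p = 0.00406), and the ligand gene Nodal fell by 0.45 ± 0.11, a call lost with median scaling or quantile normalization.

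BMP and Wnt components moved both ways. In the BMP pathway 2 of 23 rose and 3 fell (21.7% called, against 12.6% of all genes). The ligand gene Bmp4 fell from 2.70 and 2.74 to 1.90 and 1.79 (-0.88 ± 0.15 SE, adjusted p = 0.00855), and Id3, a target of BMP signalling, fell from 0.82 and 1.02 to -0.09 and 0.01 (-0.96 ± 0.13, adjusted p = 0.00404). The receptor gene Acvr1 (0.64 ± 0.13) and the signal transducer gene Smad1 (0.49 ± 0.12) rose, the latter call lost with median scaling. In the Wnt pathway 3 of 34 rose and 2 fell (14.7% called, near the 12.6% of all genes). The receptor gene Fzd1 rose from -6.41 and -5.43 to -3.76 and -3.58 (2.25 ± 0.29, adjusted p = 0.0031), with 1 of 2 shNT arrays well above background. Fzd2 rose from -1.15 and -1.39 to 0.37 and 0.08 (1.49 ± 0.17), while Fzd5 fell by 1.35 ± 0.36. Of the genes needed to secrete Wnt ligands, Wls rose by 0.72 ± 0.15 and Porcn, an acyltransferase gene, fell by 1.06 ± 0.20. So receptors of 1 family were called in opposite directions.

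Lineage lists differed in their calls at day 2. Of 19 trophectoderm genes, 2 rose and 2 fell (21.1% called, against 12.6% of all genes), with a median of 0.17. The keratin gene Krt18 rose from 1.76 and 2.12 to 2.56 and 2.95 (0.82 ± 0.20 SE, adjusted p = 0.0326) and the homeobox gene Esx1 from -3.22 and -3.48 to -2.43 and -2.48 (0.90 ± 0.11). Tfap2c, a transcription factor gene shared by trophoblast and germ cells, fell from 0.86 and 1.05 to -1.39 and -0.49 (-1.89 ± 0.26, adjusted p = 0.0042), and Gata2 fell by 0.91 ± 0.18. The trophoblast factor gene Hand1 differed by -0.18 ± 0.13 (adjusted p = 0.44) at day 2, and by 4.45 and 5.32 at days 4 and 6. The trophectoderm median at those days was 1.92 and 2.06. Of 13 primed epiblast genes, 5 fell and 0 rose (38.5%, against 12.6% of all genes called either way and 6.33% called lower). The other 8 lay above 0 and the median was 0.11. Among the 5 were Fgf5, Fgf15, Nodal, Foxd3 (-0.59 ± 0.16, lost with median scaling or quantile normalization) and the cadherin gene Cdh2 (-0.85 ± 0.19). Of 19 endoderm genes, 2 rose, Sox17 (0.83 ± 0.18) and the reported probe of Dab2 (1.11 ± 0.11), whose second probe was at -0.23. The nuclear receptor gene Hnf4a (-0.96 ± 0.19) was 1 of 2 that fell. The endoderm list had 21.1% called against 12.6% of all genes, 11 members above 0, 8 below and a median of 0.11. Of the uncalled primitive endoderm markers, Sox7 (-1.03), Gata6 (-0.85), Foxa2 (-0.48) and Gata4 (-0.47) lay below 0 and Pdgfra (0.27) above. Of 13 neural genes, 3 rose and 0 fell (23.1% called, against 12.6% of all genes), while 7 lay below 0 and the median was -0.17. Nes, a filament gene of progenitors, rose from -0.25 and -0.19 to 0.95 and 0.92 (1.15 ± 0.18). Sox11 rose by 1.20 ± 0.31 by its reported probe, and its other probes lay between -0.08 and 1.38, not all of them called. Of 7 genes of the 2-cell-like state, a rare ESC state, 0 passed, though all 7 lay above 0, with a median of 0.77. Their median at days 4 and 6 was 2.60 and 2.00. Zscan4c was at 0.49 and -0.98 against 2.07 and 0.32 (1.44 ± 0.58, adjusted p = 0.157), and near-identical copies of this family cannot be told apart by probe.

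**Figure D4:**
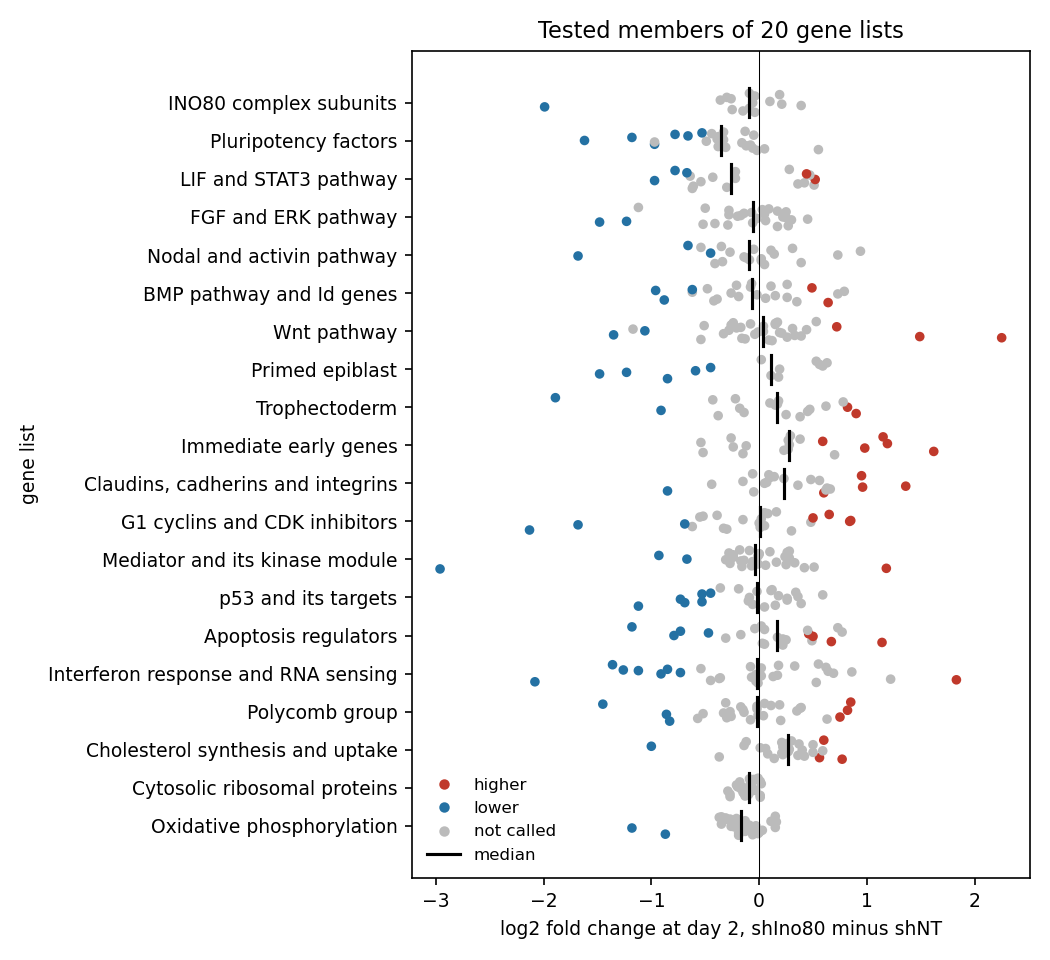
Log2 fold change at day 2 (horizontal axis, shIno80 minus shNT) of each tested member of 20 gene lists, 1 point per gene, red where called higher, blue where called lower and grey where not called, with a black line at the list's median. The pluripotency list lies mostly below 0 (median -0.35) and the immediate early and cholesterol lists mostly above (medians 0.28 and 0.27). The ribosomal and oxidative phosphorylation lists also lie mostly below 0 (medians -0.10 and -0.17) and the claudin list mostly above (0.23). Other lists hold calls on both sides of 0 or on 1 side only.

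Fibroblast and contractile genes were called in both directions. Of 18 tested fibroblast and feeder cell genes, 3 rose and 2 fell (27.8% called, against 12.6% of all genes). Tagln, an actin-binding protein gene, rose from 0.70 and 0.34 to 1.24 and 1.82 (1.01 ± 0.23 SE) and Twist1 from -3.21 and -3.02 to -2.28 and -1.87 (1.04 ± 0.19), while Thy1 fell from 0.58 and 0.20 to -0.50 and -0.92 (-1.10 ± 0.16). Of 9 markers of feeder cells, 5 were well above background on all 4 arrays, and Dcn, Lum and Postn on none. The mean log2 signal of the 9 went from -4.10 and -4.27 to -4.42 and -4.48. Blood cell markers averaged -4.42 and -3.98 against -4.78 and -4.83, with Ptprc on no array above background, while trophoblast markers averaged -2.99 and -2.10 against -2.73 and -2.45, and primitive endoderm markers -4.49 and -4.23 against -4.60 and -4.30. These means include markers that did not pass the detection filter. Among them, the blood marker Adgre1 stood at -7.77 and -4.01 against -8.14 and -8.15. The trophoblast marker Elf5 stood at -7.58 and -3.92 against -7.69 and -7.99, and Postn at -5.94 and -6.59 against -7.39 and -8.18. The part of these cell types in the changes above was not tested. In bulk RNA, fewer cells of a type and less RNA per cell cannot be told apart.

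Immediate early and cell adhesion genes were among the lists with more rises than falls. Of 18 immediate early genes, which respond to growth factors and stress, 5 rose and 0 fell, with a median of 0.28. Their called share was 27.8%, against 12.6% of all genes called either way and 6.30% called higher. Egr2 rose from -4.75 and -4.31 to -3.17 and -2.65 (1.62 ± 0.28 SE, adjusted p = 0.00927), Jun from -4.26 and -3.78 to -3.04 and -2.63 (1.19 ± 0.26), and Nr4a2 from -4.22 and -4.58 to -3.31 and -3.20 (1.15 ± 0.13). Fosl1 rose by 0.98 ± 0.14. Of 21 claudins, cadherins and integrins, 4 rose and 1 fell (23.8% called, against 12.6% of all genes). The tight junction genes Cldn7 (from -0.39 and 0.08 to 1.02 and 1.37), Cldn6 (0.96 ± 0.19) and Ocln (0.95 ± 0.16) rose, and Cdh1, which encodes E-cadherin, rose from 3.38 and 3.74 to 4.02 and 4.29 (0.60 ± 0.14), while Cdh2, N-cadherin, fell as above. The call of Cdh1 was lost with median scaling.

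Cell cycle regulators split. Called shares were 30.4% in the G1 list, 12.5% in Mediator, 9.68% in replication and 3.45% in mitosis, against 12.6% of all genes. Of 23 G1 cyclins and CDK inhibitors, 4 rose and 3 fell. Beside Ccnd2, its partner kinase gene Cdk6 fell from 0.94 and 1.70 to -0.54 and -0.18 (-1.68 ± 0.27 SE, adjusted p = 0.00782), although its other 2 probes, at -0.70 and -0.05, did not pass. The INK4 inhibitor genes Cdkn2a (0.84 ± 0.12) and Cdkn2b (0.85 ± 0.14) rose, and Cdkn1a, which encodes the inhibitor p21, fell from 0.70 and 0.32 to -0.08 and -0.29 (-0.69 ± 0.17, adjusted p = 0.033). E2f1 rose by 0.50 ± 0.11, and with median scaling neither E2f1 nor Cdkn1a passed. Of 31 replication genes 3 fell, with a median of -0.20, Pola1 most (-0.74 ± 0.16), and of 29 mitosis genes 1 fell, the centromeric histone gene Cenpa (2.34 and 2.67 against 1.24 and 1.52, -1.13 ± 0.14). In Mediator, 1 of 32 rose and 3 fell: beside Ccnc, Med27 fell (-0.93 ± 0.14) and Cdk19, a kinase that pairs with cyclin C, rose from -0.54 and -0.35 to 0.68 and 0.81 (1.18 ± 0.12), as did its second probe (0.95). The related kinase gene Cdk8 was at 0.42 ± 0.15 (adjusted p = 0.12).

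Survival genes also moved both ways. Of 23 p53 genes, 6 fell and 0 rose (26.1%, against 12.6% of all genes called either way and 6.33% called lower). The median was -0.02, with 11 members above 0 and 12 below. Bax, a proapoptotic member of the Bcl-2 family, fell from 3.82 and 4.23 to 2.89 and 2.92 (-1.12 ± 0.13 SE, adjusted p = 0.00205), and Pmaip1, another, fell by 0.53 ± 0.12. Of 23 apoptosis regulators, 4 rose and 4 fell (34.8% called, against 12.6% of all genes). The antiapoptotic gene Mcl1 fell from 4.86 and 5.18 to 3.79 and 3.88 (-1.18 ± 0.12, adjusted p = 0.00141), while Bcl2, also antiapoptotic, rose from -3.27 and -3.10 to -2.18 and -1.91 (1.14 ± 0.15) and Bcl2l1 rose by 0.67 ± 0.11. The caspase gene Casp9 fell by 0.73 ± 0.13. Of 34 repair genes 1 rose and 4 fell (14.7% called, near the 12.6% of all genes), with a median of -0.06.

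Of 30 interferon and RNA sensing genes, 7 fell and 1 rose, a called share of 26.7% against 12.6% of all genes. The median was -0.02, with 14 members above 0 and 16 below. Beside Ddx58, the 2',5'-oligoadenylate synthetase genes Oas1d (-1.26 ± 0.24 SE), Oas1a (-1.12 ± 0.25) and Oas2 (-0.85 ± 0.17) fell, as did Irf9, a transducer of interferon signals (-0.11 and -0.36 against -1.05 and -1.25, -0.91 ± 0.13). Tgtp1 fell by 1.36 ± 0.35 by its reported probe, with a second at 0.17. Gbp2, a guanylate-binding protein gene, rose from -6.32 and -5.45 to -4.10 and -4.01 (1.83 ± 0.31, adjusted p = 0.0091). Related Oas copies can share probe signal. In the RNA interference machinery 2 of 16 rose and 2 fell. Ago2, the slicing Argonaute, was at 3.09 and 2.94 against 1.97 and 1.86 by its reported probe (-1.10 ± 0.10), but its 3 other probes, at -0.16 to 0.00, did not pass. The same held for Lin28b (-1.05 ± 0.12, other probes at 0.12 and -0.43).

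Among chromatin regulators, the Polycomb group had 3 rises and 3 falls of 29 (20.7% called, against 12.6% of all genes). Rnf2, the ubiquitin ligase of PRC1, fell from 2.89 and 3.12 to 1.5 and 1.60 (-1.45 ± 0.12 SE, adjusted p = 0.000752), and its second probe fell by 0.71. Jarid2, a PRC2 partner, fell by 0.86 ± 0.13, and the PRC1 genes Yaf2 (0.85 ± 0.13) and Pcgf5 (0.82 ± 0.13) rose. Tet2, a DNA demethylating enzyme gene, fell from -0.24 and -0.59 to -1.42 and -1.86 (-1.22 ± 0.27), as did its second probe (-1.22). In the Myc network, Myc fell by 0.87 ± 0.23 and Mycn by 0.55 ± 0.15, calls lost with median scaling, and the reported probe of the Myc antagonist Mxd1 rose by 1.04 ± 0.12, with a second at 0.36.

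Metabolic and stress lists differed in their called shares. These were 0.00% in cytosolic ribosomal proteins, 5.71% in oxidative phosphorylation, 15.4% in cholesterol and 16.0% in stress response, against 12.6% of all genes. Of 32 cytosolic ribosomal protein genes, limma called 0, with 28 below 0 and a median of -0.10. Of 35 oxidative phosphorylation genes 2 fell, with Ndufa2 of complex I from 3.91 and 4.09 to 2.67 and 2.97 (-1.18 ± 0.13 SE), and 29 of 35 were below 0 (median -0.17). Of 26 cholesterol genes 3 rose and 1 fell, and 22 of 26 were above 0 (median 0.27). Cyp51 (0.77 ± 0.17), Tm7sf2 (0.60 ± 0.12) and Dhcr7 (0.56 ± 0.09), enzymes late in the pathway, rose, though none of the 3 passed with median scaling. Of 25 stress response genes 4 fell, with Edem1 (-1.24 ± 0.12) and Chac1 (-1.10 ± 0.25) lowest, though 1 of 3 Edem1 probes was at 0.19. Ndrg1, a hypoxia-induced gene, fell from 2.44 and 2.10 to 0.77 and 0.94 (-1.42 ± 0.19).

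Promoter sequence was set beside the day 2 calls, since YY1 partners with INO80. RefSeq promoters (GRCm38.p6, 250 bases before to 50 after the start, 300 in all) were at hand for 12387 of the 19184 tested genes, 887 of those called higher and 844 of those called lower. The letters AANATGGCG, the YY1 motif, were searched on both strands, where N is any base. They were in 2.51% of all 27025 promoters of the table and in 4.47% of promoters of tested genes. Among genes called lower, 79 of 844 (9.36%) held them, against 10 of 887 (1.13%) among genes called higher and 4.36% among genes not called. Of 4 further motifs, the NRF1 motif was in 1.90% of lower and 1.47% of higher promoters, the E-box CACGTG in 10.8% and 9.36%, the CRE TGACGTCA in 2.61% and 3.49%, and the octamer ATGCAAAT in 1.78% and 1.35%. Of these 5 searches the YY1 letters gave the widest gap between lower and higher genes. Promoters of higher genes were richer in CpG, with a median of 22 CpG against 19 in lower genes and in all tested genes.

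Brighter genes held the YY1 letters more often, so the shares were also read within 4 groups of 4796 tested genes each, ordered by mean signal over 12 arrays. In the brightest group, the letters were in 12% of promoters of lower genes, 7.37% of those not called and 1.89% of those of higher genes. In the next these shares were 9.87%, 5.17% and 1.14%, and in the one after 6.77%, 2.79% and 1.13%. In the dimmest, 1 of 54 lower, 15 of 2255 not called and 0 of 76 higher promoters held them, too few to compare. In the brighter groups, the lower genes stood above the genes not called, and the higher genes below them. The core letters ATGGCG alone, which overlap the longer ones and were searched after these shares were seen, were in 23.7% of lower and 9.02% of higher promoters, and ATGGCGGC in 10.3% and 1.58%.

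**Figure D5:**
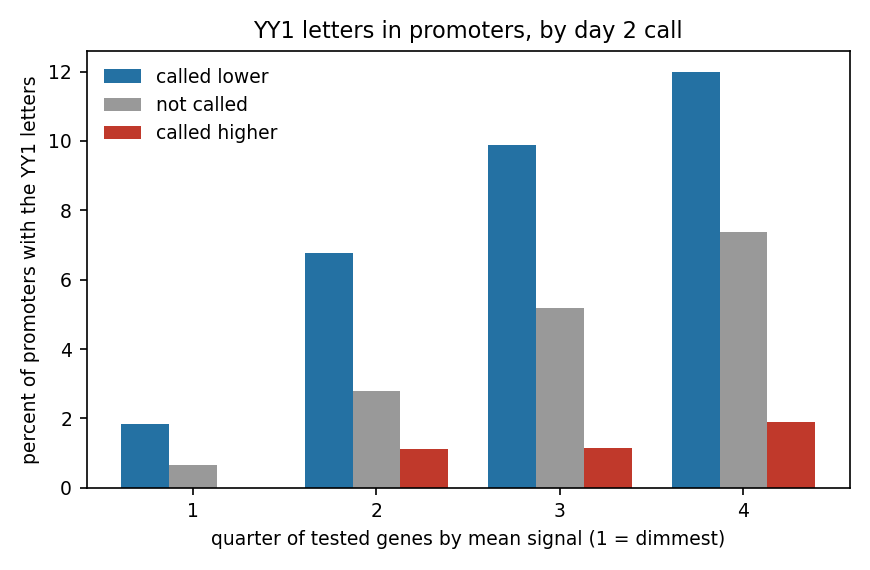
Percent of promoters that hold the YY1 letters (vertical axis, from 0) in 4 equal groups of tested genes by mean signal (horizontal axis, 1 the dimmest and 4 the brightest), for genes called lower (blue), not called (grey) and called higher (red) at day 2. In each group the blue bar is the tallest, though in the dimmest it rests on 1 of 54 promoters. It reaches 12% in the brightest, where the grey bar is at 7.37% and the red bar at 1.89%.

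Genes with these letters moved little on average. The 554 tested genes that held them had a median log2 fold change of -0.12 at day 2, against 0.02 for the rest, and 66.4% of them were below 0 against 47.2%. At day 4 the medians were -0.29 and -0.01, and at day 6 -0.37 and -0.09. Genes with and without the letters were not matched for signal. In the brightest group above, 7.67% of genes were called lower at day 2 and 2.65% higher. Of 582 matches, 352 (60.5%) lay from 10 bases before the start onward, and of the 80 in genes called lower, 62 (77.5%). The letters are a description of these windows and do not show that YY1 bound there. Yy1 itself was at 2.13 and 2.24 against 2.11 and 2.09.

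Of the 79 genes called lower, the 4 autosomal ones with the largest falls are printed, chosen after their values were seen, with the YY1 letters in capitals. In Btbd7 an E-box is in capitals too, upstream of the YY1 letters. They lie at chr11:73176833-73177132 on the plus strand, and at chr12:102878393-102878692, chr5:138619694-138619993 and chr17:33033332-33033631 on the minus strand (GRCm38.p6).
Tax1bp3: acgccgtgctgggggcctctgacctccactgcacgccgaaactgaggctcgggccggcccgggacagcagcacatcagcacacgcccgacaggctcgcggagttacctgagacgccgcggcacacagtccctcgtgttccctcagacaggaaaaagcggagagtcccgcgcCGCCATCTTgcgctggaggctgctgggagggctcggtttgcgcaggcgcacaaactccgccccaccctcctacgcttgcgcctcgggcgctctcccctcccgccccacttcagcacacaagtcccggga
Btbd7: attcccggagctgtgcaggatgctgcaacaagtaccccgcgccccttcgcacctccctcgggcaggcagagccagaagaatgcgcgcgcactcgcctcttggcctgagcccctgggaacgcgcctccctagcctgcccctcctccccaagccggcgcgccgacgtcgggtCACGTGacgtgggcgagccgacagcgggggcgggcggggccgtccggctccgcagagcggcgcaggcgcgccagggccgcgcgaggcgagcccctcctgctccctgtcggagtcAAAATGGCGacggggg
Zfp68: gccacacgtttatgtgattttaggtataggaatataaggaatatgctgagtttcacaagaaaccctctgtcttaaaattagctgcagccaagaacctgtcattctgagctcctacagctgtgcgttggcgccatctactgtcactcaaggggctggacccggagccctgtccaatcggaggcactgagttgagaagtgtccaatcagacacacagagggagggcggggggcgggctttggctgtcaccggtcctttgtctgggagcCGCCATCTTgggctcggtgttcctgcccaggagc
Zfp763: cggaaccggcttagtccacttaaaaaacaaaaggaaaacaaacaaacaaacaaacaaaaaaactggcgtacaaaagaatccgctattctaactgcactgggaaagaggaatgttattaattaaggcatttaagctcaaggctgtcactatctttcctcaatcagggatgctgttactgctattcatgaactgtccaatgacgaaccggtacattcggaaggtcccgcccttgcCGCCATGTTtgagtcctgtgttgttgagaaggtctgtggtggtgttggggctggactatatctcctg
Tax1bp3, a PDZ domain protein gene, fell from 1.02 and 1.30 to -0.56 and -0.49 (-1.68 ± 0.17 SE). Btbd7, a BTB domain gene, fell from -1.13 and -1.44 to -2.82 and -2.95 (-1.60 ± 0.14). The zinc finger genes Zfp68 (0.86 and 1.30 against -0.48 and -0.17, -1.41 ± 0.17) and Zfp763 (-0.63 and -0.70 against -2.15 and -1.92, -1.37 ± 0.12) fell as well. In Zfp68 and Btbd7 the letters lie 16 and 34 bases after the start, and in Zfp763 and Tax1bp3 they begin 17 and 79 bases before it. The mitochondrial genes Mrps27 (-1.34 ± 0.16) and Ptcd2 (-1.30 ± 0.11) and the RNA exosome gene Exosc2 (-1.05 ± 0.10) also held them. Of the 79 genes, 74 were called lower at day 4 too and 69 at day 6. Taf7l and Usp6nl were called higher at both later days, and Pou2f1, Ssr4 and Tax1bp3 (0.13 and 0.24) were called in neither direction at either.

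Most day 2 changes were still present later. At day 4, limma called 21.2% of genes higher and 21.2% lower, and at day 6 21.8% and 28.4%. Each day had its own shNT arrays, but the groups held the same slide positions on each day. The days also shared an estimate of the spread of each gene. Calls on different days are therefore not independent. Of the 1208 genes higher at day 2, 934 (77.3%) were called higher at day 4 and 804 (66.6%) at day 6, while 28 and 88 were called lower. Of the 1215 lower genes, 985 (81.1%) were called lower at day 4 and 941 (77.4%) at day 6, while 46 and 77 were called higher. Both later days carried the day 2 direction in 759 rises and 896 falls. The median change of the day 2 rises was 0.72, 0.93 and 0.79 at days 2, 4 and 6, and that of the falls -0.76, -0.97 and -0.94.

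Other changes were seen at day 2 and not called later, 147 rises and 106 falls. Prg2 differed by -0.33 and 0.05 at days 4 and 6, Reg3d by 0.05 and 0.48, and Negr1 by 0.09 and 0.00. For each of these 3 the difference between day 2 and both later days passed (adjusted p between 0.000176 and 0.00543). Dll1, whose groups were apart by 1.75 at day 2, was at -0.04 and -0.38 (adjusted p of the change 0.00457 and 0.00107). Trim67, with 1 shIno80 array well above background, went from 2.43 to -0.43 and -0.98, with a second probe at 0.46 on day 2. Lrrtm1 was at 0.27 and 0.04, with a change from day 2 of 4.6 and 4.37 (adjusted p = 5.05e-05 and 2.28e-05). Arl9, a small GTPase gene, went from -2.22 to 0.62 and -0.69, and Serpinb1b from -1.95 to -0.29 and 0.16, a change that passed at day 6 (adjusted p = 0.0149) and not at day 4 (0.0549). Insm1, Prss28, Ssxb2 and Ren2 were also called at day 2 only, but the change of their difference between days did not pass or passed for 1 of the later days.

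Steep falls that eased were seen among the largest as well. Bbx went from -2.91 to -1.10 and then -0.19, and the change from day 2 passed at both (adjusted p = 0.00197 and 0.000168). Ccnd2 went from -2.13 to -0.76 and 0.35, and Gnai3 from -3.08 to -2.23 and -1.36. Ccnc stood at -2.96, -2.72 and -2.04. Rcbtb1, at -3.24, -3.50 and -2.75, and Sephs2, at -2.14, -2.47 and -2.25, showed no change between days that passed. Sh3rf2 and Ccn1 rose further, to 5.02 and 3.74 at day 6.

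Rises and falls at day 2 were backed by a second probe in about the same share of genes. Of 495 higher genes with another kept probe, 220 (44.4%) had another called the same way and 5 another called the other way, and in 451 (91.1%) it had the same sign. Of 505 lower genes these numbers were 234 (46.3%), 3 and 455 (90.1%). Other probes moved less than reported ones, with medians of 0.53 against 0.67 for rises and -0.50 against -0.69 for falls. Of 146 genes named here that were called, 80 were called with any 1 of the 4 arrays left out. Calls lost in at least 1 such fit included those of Klf4, Tfcp2l1, Tdgf1, Zfp42, Fgf5, Nodal, Krt18, Gata2, Fzd5, Porcn, Wls, Cdkn1a, E2f1, Myc, Mycn, Jun, Oas1a, Oas2, Tet2 and Cdh1.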

How the data were processed

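RNA from J1 cells was hybridised to 1-colour Agilent arrays. The deposited scanner files hold spot intensities from Feature Extraction 9.5.3.1; the processed intensity was background-subtracted and detrended, with surrogate values for low spots, per the file headers. The deposited value table holds log2 values that equal the mean spot intensity times 1 factor per array, which tied each scanner file to a column. It names the samples here.

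Each array's log2 processed intensities were lowered by their 75th percentile, taken without control probes. Outlier spots were left out (125 probes lost), and spots of a probe were averaged. Probes entered (28657 of 41174) if both arrays of any of the 6 groups were well above background, and the brightest such probe stood for its gene. Names came from a RefSeq table (GRCm38.p6): 22951 probes by accession, 6659 by symbol, 3109 by older symbol, and 8455 kept the file's name. Probe positions are mm7, per the file headers.

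The 12 arrays were fitted together, 1 mean per group, with limma 3.58.1 in R 4.3.3 (6 residual and 2.18 prior degrees of freedom) and adjusted by Benjamini-Hochberg over all genes. Each slide held the 4 arrays of 1 day. The fit was tested on simulated data. Alternatives changed scaling, background correction, filters, probes, samples and pairing. Genes named are Ino80 and 6 ESC factors, the 12 largest changes per direction, the 6 largest bounds, up to 3 per list and direction, those passing in 4 arrays alone, and the 6 largest per direction reversed or not called later. Members and lists were chosen with earlier results of these data known. Results for some list members that the rule would name are not reported here.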

Additional observations from a re-analysis of the deposited data

Results flagged for a closer look

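In 19 named genes, the difference between shIno80 and shNT was called one way at day 2 and the other way at a later day, and the change of the difference itself passed limma's test. The value given is that change on the log2 scale. Of genes lower at day 2 and higher later, Mall, a membrane protein gene, changed by 4.10 from day 2 to day 4 (-1.46 to 2.65, adjusted p = 0.000286). Ctla2a changed by 4.64 to day 6 (-2.27 to 2.37), with no shIno80 array well above background at day 2. Zhx1 (2.61, from -1.74 to 0.87), Emp2 (2.54, from -1.51 to 1.03) and Taf7l (2.00, from -1.19 to 0.81) are given at day 6 and Dync1i1, a dynein chain gene (2.55, from -1.39 to 1.16), at day 4, where the change was larger. These 6 genes were picked because they were called higher at both later days.

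Among members of the gene lists that were lower at day 2 were Fgf5, which changed by 2.70 to day 4 (-1.23 to 1.47), Id3 by 2.49 to day 6 (-0.96 to 1.53), Gata2 by 2.44 (-0.91 to 1.53), Pmaip1 by 1.94 (-0.53 to 1.41) and Cdkn1a by 1.53 (-0.69 to 0.84).

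Of genes higher at day 2 and lower later, Ucma changed by -3.27 (0.72 to -2.55), Tarm1 by -3.10 (1.23 to -1.87), Crispld1 by -2.30 (0.92 to -1.38), Phkg1 by -1.67 (0.75 to -0.93), Susd2 by -1.53 (0.72 to -0.81), Lifr by -1.72 (0.52 to -1.19) and E2f1 by -1.16 (0.50 to -0.67), each at day 6, and Myb by -1.78 (0.69 to -1.09) at day 4. The day 2 calls of Ucma, Crispld1, Phkg1, Susd2, Myb, Lifr, E2f1 and Cdkn1a were lost with median scaling. Other probes of Lifr and Myb did not follow the reported one at day 2. All 19 were among genes named for other reasons or by this pattern, so their number is no share of all genes.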

How the results depend on the processing

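With 1 array left out, day 2 calls ranged from 1098 to 1898, rises from 443 to 1013 and falls from 566 to 1071, and Gnai2, not called, from -0.40 to 0.19. Median scaling gave 1675 calls, 702 higher and 973 lower (41.9% higher against 49.9%), and the deposited log2 values gave 1460 higher and 1008 lower (59.2% higher). No filter on dim probes gave 1390 calls (624 and 766), and 8 arrays 1373 (659 and 714). In the 4 arrays alone, 6 passed (0 higher, 6 lower) and Ino80 at day 2 stayed at -1.99 (adjusted p = 0.0915). The main fit did not pair samples by replicate number. Deviations of same-numbered arrays correlated at 0.30, 0.12 and 0.08 at days 2, 4 and 6. Across the day 2 groups, same-numbered arrays correlated at 0.9862 and 0.9870, and differently numbered ones at 0.9826 and 0.9843. Some pairing at day 2 may thus have been ignored. A replicate block within each day gave 3806 calls, 2005 higher and 1801 lower, and 1 number across days 2417. The mean of probes put Lifr at -0.08.

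Normexp on all spots gave 5 calls, 0 higher and 5 lower, with 2052 genes at an unadjusted p under 0.05, and moved the median of all genes to -0.30. Ino80 was at -1.65 (adjusted p = 0.118). Its fitted background on 1 shNT array was -897.6, and -24 once 3 spots far below their local background were left out. Leaving out such spots, chosen after seeing the data, gave 2398 calls, 1047 higher and 1351 lower. On all spots these log2 values changed sign: Pou5f1 0.03, Esrrb 0.03, Colec12 -0.23, Cd200 -0.50, Brsk2 -0.38, Prg2 -0.32, Reg3d -0.39, Negr1 -0.93, Ms4a4d -0.97, Cd44 -1.16, Klf14 -1.06, Tarm1 -0.99, Crispld1 -1.02, Phkg1 -1.03, Myb -0.43, Fzd1 -0.52, Esx1 -0.39, Dab2 -0.42, Twist1 -0.05, Cdkn2a -0.55, Bcl2 -0.02, Fosl1 -0.16, Nr4a2 -0.57, Egr2 -0.38, Jun -0.40, Gbp2 -0.77, Ocln -0.35, Smarca2 -0.95, Sox17 -0.96, Trim67 -1.39, Wls -0.13, Gnai2 0.21.

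With groups taken from the scanner files' attachment, 0 genes were called (0 higher, 0 lower; 593 at an unadjusted p under 0.05), Ino80 was at 0.11, and these log2 values changed sign: Sox2 0.16, Zfp42 0.23, Sh3rf2 -0.24, Ccn1 -0.02, Colec12 -0.36, Cd200 -0.35, Rcbtb1 0.47, Gnai3 0.33, Ccnc 0.20, Lonrf2 0.08, Bbx 0.31, Fyttd1 0.10, Evx1 0.58, Tmem64 0.23, Sephs2 0.06, Ccnd2 0.35, Reg3d -0.57, Negr1 -0.12, Ms4a4d -0.61, Lrrtm1 0.09, Rassf9 1.28, Prss28 1.59, Btnl1 0.52, Zhx1 0.30, Emp2 0.03, Dync1i1 0.17, Taf7l 0.44, Ctla2a 0.42, Susd2 -0.03, Nr5a2 0.35, Tbx3 0.00, Tfcp2l1 0.40, Socs3 0.05, Lifr -0.05, Fgf5 0.44, Inhbb 0.51, Id3 0.15, Fzd2 -0.27, Tfap2c 0.54, Esx1 -0.15, Gata2 0.36, Cdk6 0.56, Pola1 0.21, Cenpa 0.30, Med27 0.31, Bax 0.22, Pmaip1 0.19, Mcl1 0.21, Bcl2l1 -0.17, Myc 0.59, Mycn 0.15, Mxd1 -0.01, Nr4a2 -0.13, Edem1 0.23, Lin28b 0.20, Rnf2 0.17, Jarid2 0.09, Ndufa2 0.24, Tax1bp3 0.17, Zfp68 0.38, Zfp763 0.08, Exosc2 0.15, Smarca2 -0.26, Acvr1 -0.16, Cdh2 0.46, Cldn6 -0.16, Tgtp1 0.60, Dhcr7 -0.07, Cyp51 -0.20, Tm7sf2 -0.19, Sox17 -0.22, Arl9 0.35, Ssxb2 0.08, Ren2 1.09, Serpinb1b 0.23, AK030647 0.16, 2510042H12Rik 0.02, Poteg 0.10, Foxd3 0.06, Ptcd2 0.04, Casp9 0.26, Cdk8 -0.34, Gnai1 -0.14, Hand1 0.06, Zscan4c -1.61.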
